A study of Mus musculus with 16 samples.

Results

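The TALE homeobox genes Irx1, Irx2, Irx3, Irx5, Meis1, Meis2, Meis3 and Pbx3 were followed across 16 RNA sequencing libraries of the embryonic mouse stomach. They were taken by gene symbol from a table of 53711 genes, and all 8 of 8 had an entry with values in every library. TALE proteins are transcription factors whose homeodomain carries 3 additional residues in a loop between its first helices. The Iroquois (Irx) genes pattern tissues along body axes and lie in chromosomal clusters that share regulatory elements. MEIS and PBX proteins bind DNA together and act as partners of HOX proteins, and Meis and Pbx genes are widely active in the mesenchyme and epithelium of the developing gut.

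By their labels all 16 libraries came from Sox2-EGFP; Gata4-td Tomato embryos, which carry both knock-in reporters, while the study's methods describe these embryos for the epithelial sorts only. Epithelial cells were sorted by EpCAM and by the fluorescence of both reporters. The E13.5 fractions were Gata4hi with 3 libraries, Sox2midGata4mid with 2 and Sox2hi with 3, and E11.5 epithelium gave 1 Gata4hi and 1 Sox2hi library. PDGFRα-positive fibroblasts of the distal and of the proximal stomach gave 1 library each for days E13.5, E15.5 or E17.5. At E13.5, Gata4hi cells are taken as mostly future columnar epithelium of the hindstomach and Sox2hi cells as mostly future squamous epithelium of the forestomach. Sox2midGata4mid cells are taken as those of the junction between them. The study's lineage tracing found that GATA4-expressing cells could still give rise to basal cells up to E13.5. Its supplement names the E11.5 libraries Sox2+Gata4hi and Sox2+Gata4−, so both were Sox2-positive and fractions of the same name may differ in gate between stages. Levels are given in FPKM (fragments scaled by transcript length and by mapped fragments), so that levels of different genes are compared per length.

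The labelled cell types were checked against marker genes. Epithelial markers (Epcam, Cdh1, Krt8, Krt18, Cldn6) summed to 864 to 1440 FPKM in the 10 epithelial libraries and to 1.42 to 8.85 FPKM in the 6 fibroblast libraries. Fibroblast markers (Pdgfra, Col1a1, Col1a2, Col3a1, Vim, Twist1, Prrx1, Lum) summed to 17.54 to 49.4 FPKM in epithelium and to 4846 to 32277 FPKM in fibroblasts. Smooth muscle markers (Acta2, Myh11, Actg2, Des, Cnn1) summed to 1.37 to 9.81 FPKM in epithelium and to 366 to 1004 FPKM in fibroblasts. Gata4 stood at 157 to 199 FPKM in Gata4hi, 39.95 to 84.4 FPKM in Sox2midGata4mid and 3.21 to 7.26 FPKM in Sox2hi libraries at E13.5. Sox2 differed far less, at 49.9 to 61.2 FPKM in Gata4hi, 73.3 and 73.8 FPKM in Sox2midGata4mid and 85.7 to 94.1 FPKM in Sox2hi libraries. At E11.5 Sox2 was at 69.1 FPKM in the Gata4hi and 87.5 FPKM in the Sox2hi library. Reporters of both genes set the sort, so their order follows from it. The values hold no read counts, and the relative depth read from low FPKM values spanned 0.394 to 1.07 times that of the first Sox2hi library at E13.5.

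The 8 genes lie at 6 loci of GRCm38. Irx1 (chr13:71957921-71963723, minus strand) and Irx2 (chr13:72628820-72634198, plus strand) belong to the IrxA cluster and are 665 kb apart. Irx3 (chr8:91798525-91802067, minus strand) and Irx5 (chr8:92357625-92376286, plus strand) belong to the IrxB cluster and are 556 kb apart. The other members are Meis1 (chr11:18879817-19018985, minus strand), Meis2 (chr2:115863064-116065839, minus strand), Meis3 (chr7:16175090-16186504, plus strand) and Pbx3 (chr2:34171457-34373142, minus strand). Exons of Irx3 share 124 bases with Irx3os, a transcript of the opposite strand, and exons of Meis1 share 1029 bases with Gm37818 on the same strand and 896 bases with Gm16140 on the opposite strand. Whether strand was used in the counting is not given in the sources used here, so reads in these shared bases cannot be assigned with certainty.

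RefSeq promoter windows (GRCm38.p6, 250 bases before to 50 after the start of transcription) were matched for 5 of the 8 genes, namely Irx2, Irx3, Meis1, Meis2 and Meis3. The windows were searched on both strands for words bound by GATA factors (AGATAA or AGATAG or TGATAA or TGATAG), SOX factors (ACAATG or ACAAAG), MEIS (TGACAG) and PBX (TGATTNAT). Irx2, whose level differed between the fractions, is shown beside Meis1, whose level did not pass the test, and beside Meis2, which differed in the opposite direction to Irx2. The stretches are the parts of each window outside annotated exons, at chr13:72628570-72628819 (plus strand), chr11:19018986-19019219 (minus strand) and chr2:116064722-116064801 (minus strand), and capitals mark a word that was found.
Irx2: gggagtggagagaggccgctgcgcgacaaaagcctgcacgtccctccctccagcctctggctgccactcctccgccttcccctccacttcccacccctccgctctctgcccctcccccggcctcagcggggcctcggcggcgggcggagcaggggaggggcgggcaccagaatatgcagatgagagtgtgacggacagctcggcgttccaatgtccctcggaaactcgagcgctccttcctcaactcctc
Meis1: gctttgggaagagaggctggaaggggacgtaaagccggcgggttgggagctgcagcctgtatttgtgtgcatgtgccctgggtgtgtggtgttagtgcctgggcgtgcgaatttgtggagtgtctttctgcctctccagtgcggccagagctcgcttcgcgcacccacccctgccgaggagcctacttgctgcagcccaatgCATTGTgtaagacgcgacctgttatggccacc
Meis2: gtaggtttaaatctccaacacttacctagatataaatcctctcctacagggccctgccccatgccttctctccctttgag

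The single word in these stretches was a SOX word in the Meis1 window, printed as its reverse complement and beginning 48 bases before the start. The Meis3 window also held 1 SOX word, beginning 222 bases before the start. The whole windows of Irx2, Irx3 and Meis2 held none of the words, and those of Meis1 and Meis3 held no GATA, MEIS or PBX word. The windows of Irx3, Meis2 and Meis3 lie inside the annotated spans of these genes. Of their 300 bases, annotated exons cover 300 for Irx3, 220 for Meis2 and 210 for Meis3. Over all 32851 promoters of the table, 29.8% held a GATA word, 28.6% a SOX word, 19.2% the MEIS word and 3.22% the PBX word. GC content of the member windows ran from 51% for Meis2 to 69% for Irx2, against a median of 52.7% over all promoters.

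The first question was how these genes differed between the 3 epithelial fractions at E13.5. Gata4hi cells had far lower Irx3 and Irx5, lower Irx2, and higher Meis2 than Sox2hi cells. Irx1, Meis1 and Meis3 did not pass the test, and Pbx3 passed it narrowly. Between Sox2midGata4mid and Sox2hi cells none of the 8 genes passed. Differences were tested with limma on log2(FPKM + 1) over the 13127 genes whose mean over the 8 libraries reached 1 FPKM, all 8 members included, and p-values were adjusted by the Benjamini-Hochberg method over those genes. Nothing says whether replicates came from separate embryos or litters, so the p-values measure the spread between these libraries.

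**Figure D1:**
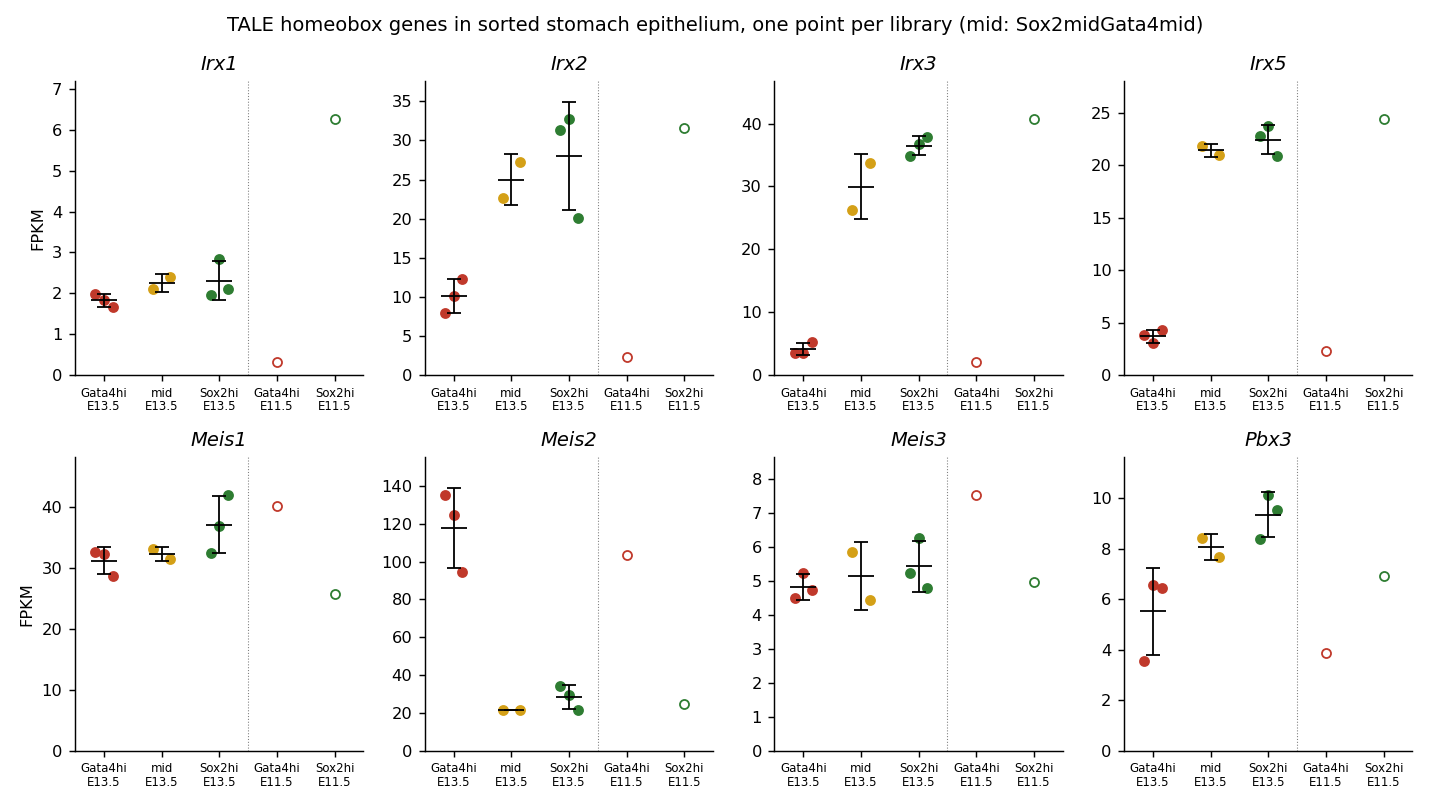
FPKM of the 8 genes (vertical axes, each from 0) in every epithelial library, with E13.5 fractions left of the dotted line (filled points, with mean and SD of 3, 2 and 3 libraries) and the single E11.5 libraries right of it (open points). Irx2, Irx3 and Irx5 are low in Gata4hi libraries and Meis2 is high in them at both stages, and the 2 Sox2midGata4mid libraries sit near the Sox2hi ones.

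Irx3 is a transcriptional repressor best known from patterning of the neural tube and from the cardiac conduction system. It stood at 3.49, 3.54 and 5.25 FPKM in the Gata4hi libraries, at 26.3 and 33.7 FPKM in the Sox2midGata4mid libraries, and at 34.9, 36.7 and 37.9 FPKM in the Sox2hi libraries. The Gata4hi values were apart from all others by a wide gap, and both Sox2midGata4mid values lay under the lowest Sox2hi value. Gata4hi over Sox2hi cells gave a log2 fold change of −2.90 (SE 0.15), for which limma's adjusted p was 2.17e-05. In bulk RNA of sorted cells, fewer cells that express a gene and less of its RNA in each cell cannot be told apart.

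Irx5, its neighbour in the IrxB cluster, is known for roles in heart and retina in the mouse. Its levels were 3.76, 3.002 and 4.26 FPKM in Gata4hi libraries, 21.9 and 21.0 FPKM in Sox2midGata4mid libraries, and 22.8, 23.7 and 20.9 FPKM in Sox2hi libraries. The 5 libraries outside Gata4hi fell within a narrow band, with no gap between Sox2midGata4mid and Sox2hi. For Gata4hi over Sox2hi cells its log2 fold change was −2.33 ± 0.12 (SE, limma adjusted p = 1.80e-05). The ratio of Irx5 to Irx3 was 0.810 to 1.08 in Gata4hi, 0.623 to 0.833 in Sox2midGata4mid and 0.552 to 0.653 in Sox2hi libraries. Irx5 thus exceeded Irx3 in 1 of the 3 Gata4hi libraries and in none of the other 5, which is a description of levels per length with no test.

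Irx2, of the IrxA cluster, varied between replicates by 21.9% of its mean (coefficient of variation) in Gata4hi, 13.1% in Sox2midGata4mid and 24.6% in Sox2hi libraries. It read 7.88, 10.1 and 12.3 FPKM in Gata4hi libraries, 22.7 and 27.3 FPKM in Sox2midGata4mid libraries, and 31.3, 32.7 and 20.1 FPKM in Sox2hi libraries. The highest Gata4hi and the lowest Sox2hi value were both in replicate 3, and the groups still did not overlap. Between Gata4hi and Sox2hi cells the log2 fold change came to −1.38 ± 0.22 (SE, limma adjusted p = 0.00320). Restricted to replicates 1 and 2, whose labels share a style that replicate 3 lacks, it was −1.73 with an adjusted p of 0.00266. The E11.5 and fibroblast libraries carry the label style of replicate 3, and the Sox2midGata4mid libraries that of replicates 1 and 2. Comparisons with these libraries therefore also differ in label style. What the style marks is not stated, and its part in them was not tested.

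Irx1, its neighbour, had the lowest mean of the 4 Irx genes in each of the 3 fractions. Its level was 1.99, 1.83 and 1.67 FPKM in Gata4hi libraries, 2.099 and 2.402 FPKM in Sox2midGata4mid libraries, and 1.97, 2.85 and 2.09 FPKM in Sox2hi libraries. Gata4hi and Sox2hi values overlapped. Its log2 fold change was −0.22 with a 95% interval of −0.60 to 0.17 and did not pass the test (limma adjusted p = 0.421). The summed level of the 4 Irx genes was 17.1 to 23.5 FPKM in Gata4hi, 72.9 and 84.3 FPKM in Sox2midGata4mid, and 81.0 to 95.9 FPKM in Sox2hi libraries.

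Meis2, a TALE partner of PBX and HOX proteins with roles in neural crest and limb development, ran the other way. Its levels were 135.2, 124 and 94.3 FPKM in Gata4hi libraries, 21.2 and 21.2 FPKM in Sox2midGata4mid libraries, and 34.1, 29.6 and 21.4 FPKM in Sox2hi libraries. The lowest Gata4hi value was well above the highest value of the other fractions, and replicate 3 was the lowest library of its group in both Gata4hi and Sox2hi cells. The log2 fold change of Gata4hi over Sox2hi cells was 2.03 ± 0.19 (SE, limma adjusted p = 2.41e-04). The ratio of Meis2 to Meis1 was 3.29 to 4.14 in Gata4hi, 0.640 and 0.675 in Sox2midGata4mid and 0.509 to 1.05 in Sox2hi libraries.

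Meis1, which is required for blood and vessel development in the mouse, was nearly level across the fractions. It read 32.6, 32.3 and 28.7 FPKM in Gata4hi libraries, 33.2 and 31.4 FPKM in Sox2midGata4mid libraries, and 32.5, 36.9 and 42.0 FPKM in Sox2hi libraries. The groups overlapped, and the log2 fold change of Gata4hi over Sox2hi cells was −0.24 with a 95% interval of −0.49 to 0.01 (limma adjusted p = 0.167). It passed the test after rescaling to a common sum (−0.40, adjusted p = 0.0284) and after quantile normalization (−0.35, adjusted p = 0.0384). Rescaling moved the median of all tested genes to −0.06, against 0.08 as deposited.

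Meis3, the least expressed MEIS gene, stood at 4.49, 5.23 and 4.73 FPKM in Gata4hi libraries, 5.86 and 4.45 FPKM in Sox2midGata4mid libraries, and 5.24, 6.27 and 4.79 FPKM in Sox2hi libraries. All 3 groups overlapped. The log2 fold change of Gata4hi over Sox2hi cells was −0.14, with a 95% interval of −0.47 to 0.19 (limma adjusted p = 0.554).

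Pbx3, a PBX family gene needed for respiration and neuronal development in the mouse, read 3.53, 6.55 and 6.45 FPKM in Gata4hi libraries, 8.43 and 7.68 FPKM in Sox2midGata4mid libraries, and 8.39, 10.1 and 9.54 FPKM in Sox2hi libraries. The Gata4hi values lay below all others, with replicate 1 the lowest. The log2 fold change of Gata4hi over Sox2hi cells was −0.70 ± 0.20 (SE, limma adjusted p = 0.0437). Leaving out 1 library at a time gave −0.83 to −0.46, the smallest change being without Gata4hi replicate 1. The call was lost without Sox2hi replicate 1, 2 or 3 (adjusted p = 0.0742, 0.127 and 0.106), without Sox2midGata4mid replicate 1 or 2 (0.0717 and 0.0706), with replicates 1 and 2 only (0.108), with no filter on low values (0.0949), with no variance trend (0.0534) and with the 2 groups fitted alone (0.0640).

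In Gata4hi over Sox2hi cells, 5 of the 8 genes thus passed the test, 1 higher and 4 lower, where 21.6% of all tested genes were called (14.9% higher and 6.7% lower). The median log2 fold change was −0.47 over the 8 genes and 0.08 over all tested genes. The share of higher among all calls was 69.0% as deposited, 47.9% after rescaling to a common sum and 52.4% after quantile normalization. With replicates 1 and 2 only, 4 of the 8 were called, namely Irx2, Irx3, Irx5 and Meis2.

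For Sox2midGata4mid over Sox2hi cells, 0 of the 8 genes passed limma's test, where 5.55% of all tested genes did (2.54% higher and 3.01% lower), and 0 of the 8 had an unadjusted p under 0.05, where 2866 genes (21.83%) had. The log2 fold changes ran from −0.38 for Meis2 (95% interval −0.87 to 0.11, adjusted p = 0.349) to −0.02 for Irx1. The interval was −0.68 to 0.12 for Irx3, −0.37 to 0.25 for Irx5 and −0.70 to 0.42 for Irx2, so that differences of the size seen in Gata4hi cells lay outside them. Gata4 itself did not overlap between these groups, as given above. The share of higher among all calls was 45.7% as deposited and 66.2% after rescaling.

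For Gata4hi over Sox2midGata4mid cells, which share the Gata4hi libraries with the first comparison, 4 of the 8 genes passed, 1 higher and 3 lower, where 13.6% of all tested genes did (11% higher and 2.59% lower). Irx3 differed by −2.61 ± 0.17 (adjusted p = 6.24e-04), Irx5 by −2.27 ± 0.13 (adjusted p = 6.15e-04) and Meis2 by 2.40 ± 0.21 (adjusted p = 0.00159), each as log2 fold change ± SE from limma. Irx2 differed by −1.24 ± 0.24 (adjusted p = 0.0164), a call lost without Sox2midGata4mid replicate 1 (0.0571) or replicate 2 (0.112). Pbx3 was at −0.51 and did not pass (adjusted p = 0.183). The share of higher among all calls was 80.9% as deposited, 34.0% after rescaling and 51.6% after quantile normalization.

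**Figure D2:**
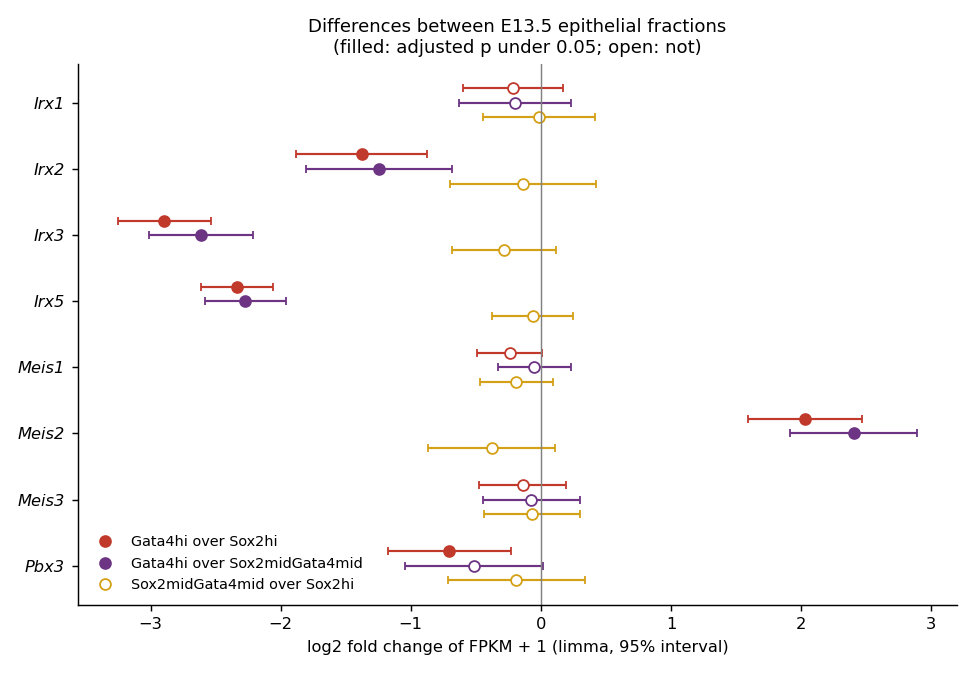
Log2 fold changes of FPKM + 1 with 95% intervals (horizontal axis) for the 8 genes (vertical axis) in the 3 comparisons between E13.5 fractions, filled where the limma adjusted p was under 0.05. Irx2, Irx3 and Irx5 lie below 0 and Meis2 above 0 against both other fractions, and the intervals for Sox2midGata4mid over Sox2hi cells all include 0.

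Markers of other cells that the epithelial gate could hold were read beside these differences. The sum over the 8 fibroblast markers was 25.9 to 37.2 FPKM in Gata4hi, 17.54 and 23.4 FPKM in Sox2midGata4mid and 22.8 to 28.6 FPKM in Sox2hi libraries. In Gata4hi libraries that sum was at most 0.767% of the sum in the lower of the E13.5 fibroblast libraries. Meis2 in Gata4hi libraries was at 36.8% to 52.8% of its level in the higher of them. The mesothelial list (Wt1, Msln, Upk3b) summed to 7.02 to 10.2 FPKM in Gata4hi, 1.87 and 3.25 FPKM in Sox2midGata4mid and 0.814 to 1.11 FPKM in Sox2hi libraries. Nearly all of it was Msln, and Wt1 and Upk3b stayed at or under 0.241 FPKM in these 8 libraries. Enteric neural markers summed to 3.296 to 6.51 FPKM in Gata4hi, 0.825 and 2.73 FPKM in Sox2midGata4mid and 1.34 to 3.40 FPKM in Sox2hi libraries. Among them Tubb3 was at 1.45 to 3.94 FPKM in Gata4hi and 0 to 0.791 FPKM in Sox2hi, Ret at 0.797 to 1.40 FPKM in Gata4hi and 0.0455 to 0.344 FPKM in Sox2hi, and Sox10 at 0 to 0.280 FPKM in Gata4hi and 0.205 to 0.358 FPKM in Sox2hi libraries. Smooth muscle markers summed to 6.31 to 9.81 FPKM in Gata4hi, 4.77 and 7.99 FPKM in Sox2midGata4mid and 2.41 to 5.49 FPKM in Sox2hi libraries. The part of the fibroblast, mesothelial, neural and muscle markers in the Meis2 and Irx differences was not tested.

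At E11.5, the next question was whether the same differences were present 2 days earlier. With 1 library a group no test was possible, and a difference of at least 2-fold on the FPKM + 1 scale was counted. In the Gata4hi library Irx3 was at 2.01, Irx2 at 2.26, Irx5 at 2.29 and Irx1 at 0.327 FPKM. In the Sox2hi library Irx3 was at 40.7, Irx2 at 31.6, Irx5 at 24.4 and Irx1 at 6.26 FPKM. Meis2 was at 103 FPKM in the Gata4hi and 24.7 FPKM in the Sox2hi library. All 4 Irx genes were therefore low in the Gata4hi library and Meis2 was high in it, and Irx1 was among the genes that differed here. The log2 differences were −3.79 for Irx3, −3.32 for Irx2, −2.95 for Irx5, −2.45 for Irx1 and 2.02 for Meis2. With a pseudocount of 0.1 FPKM Irx1 was at −3.90. This made 5 of 8 genes at least 2-fold apart, 1 higher and 4 lower, where 8.76% of all genes considered were (4.9% higher and 3.86% lower).

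The other members stayed under 2-fold at E11.5. Meis1 was at 40.2 FPKM in the Gata4hi and 25.8 FPKM in the Sox2hi library (log2 difference 0.62), Meis3 at 7.54 FPKM in Gata4hi and 4.97 FPKM in Sox2hi (0.51), and Pbx3 at 3.88 FPKM in Gata4hi and 6.92 FPKM in Sox2hi (−0.70). Blood markers summed to 11.1 FPKM in the Gata4hi and 2.45 FPKM in the Sox2hi library at E11.5, against at most 0.191 FPKM in the E13.5 epithelial libraries. Fibroblast markers summed to 49.4 FPKM in the Gata4hi and 25.6 FPKM in the Sox2hi library at E11.5. The part of both lists in these differences was not tested.

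Within each fraction, E13.5 was set against the single E11.5 library. Fractions of the same name differed in their markers between stages. In Sox2hi cells Gata4 was at 25.9 FPKM at E11.5 and 3.21 to 7.26 FPKM at E13.5. Trp63 was at 2.95 FPKM at E11.5 and 27.1 to 43.7 FPKM at E13.5 in Sox2hi cells. In Gata4hi cells Gata4 was at 229 FPKM at E11.5 and 157 to 199 FPKM at E13.5. The part of this in the stage differences was not tested. In Sox2hi cells, Irx1 was 2.30 ± 0.48 FPKM (SD, n = 3) at E13.5 and 6.26 FPKM at E11.5, a log2 difference of −1.15. It was the 1 member of 8 that was at least 2-fold apart without overlap, where 8.15% of all genes were (3.47% higher and 4.69% lower). In Gata4hi cells, Irx2 was 10.1 ± 2.21 FPKM (SD, n = 3) at E13.5 and 2.26 FPKM at E11.5, a log2 difference of 1.75. Irx1 was 1.83 ± 0.16 FPKM (SD, n = 3) at E13.5 and 0.327 FPKM at E11.5 in the same fraction, a log2 difference of 1.09, or 2.17 with a pseudocount of 0.1 FPKM. These were 2 of 8 genes, both higher, where 5.34% of all genes were apart in this way (2.72% higher and 2.62% lower). Irx3 and Irx5 in Gata4hi cells had log2 differences of 0.74 and 0.50 and Meis2 of 0.17, under the 2-fold mark.

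The second question was how epithelium and fibroblasts compared. At E13.5 the 4 Irx genes were higher in epithelium, and Meis1, Meis2 and Pbx3 were higher in fibroblasts. Across stages some levels crossed, since Irx1 was at 0.917 FPKM in distal fibroblasts of E17.5 and at 0.327 FPKM in Gata4hi cells of E11.5. Irx3 lay between 0.0165 and 0.111 FPKM and Irx5 between 0 and 0.0553 FPKM in the 6 fibroblast libraries. Irx2 reached 0.666 FPKM there (proximal, E13.5) and Irx1 0.917 FPKM (distal, E17.5), and both were listed at 0 in the distal library of E15.5. None of the 4 Irx genes reached a mean of 1 FPKM in fibroblasts, so none was tested there. Epithelial markers were at most 1.02% of the lowest epithelial library in any fibroblast library.

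At E13.5, Meis2 was at 21.2 to 135.2 FPKM in the 8 epithelial libraries and at 256 FPKM in distal and 235 FPKM in proximal fibroblasts. Meis1 was at 28.7 to 42.0 FPKM in epithelium and at 112 FPKM in distal and 92.5 FPKM in proximal fibroblasts. Pbx3 was at 3.53 to 10.1 FPKM in epithelium and at 28.1 FPKM in distal and 30.0 FPKM in proximal fibroblasts. Meis3 was at 4.45 to 6.27 FPKM in epithelium and at 13.1 FPKM in distal and 9.11 FPKM in proximal fibroblasts. The log2 difference of epithelium over fibroblasts was 3.93 for Irx3, 3.86 for Irx2, 3.63 for Irx5, 1.60 for Irx1, −2.43 for Meis2, −1.85 for Pbx3, −1.57 for Meis1 and −0.97 for Meis3. With a pseudocount of 0.1 FPKM the Irx values were 6.22 for Irx3, 5.66 for Irx2, 6.59 for Irx5 and 4.20 for Irx1, so that their order depends on it. Counting at least 2-fold without overlap, 7 of 8 genes were apart, 4 higher and 3 lower, where 21.5% of all genes were (10.2% higher and 11.3% lower). The groups hold 8 and 2 libraries and the 2 fibroblast libraries are different regions, so no test was made.

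In fibroblasts, the study compared the distal with the proximal stomach over 3 stages. Meis2 was at 256, 167 and 95.4 FPKM in distal and 235, 105 and 87.2 FPKM in proximal fibroblasts on days E13.5, E15.5, then E17.5. The distal value was the higher at each of the 3 stages. Its log2 fold change of distal over proximal fibroblasts was 0.31, with a 95% interval of −0.06 to 0.68, and did not pass (limma adjusted p = 0.560). None of the 4 genes tested passed limma's test, and neither did any of the 12900 genes tested (0%). At an unadjusted p under 0.05 there were 1287 genes and none of the 4. The intervals were −0.37 to 0.52 for Meis1, −0.14 to 0.59 for Meis3 and −0.21 to 0.34 for Pbx3.

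Over time, Meis1 and Meis2 fell in fibroblasts. Meis1 was at 112, 81.9 and 45.4 FPKM in distal and 92.5, 65.1 and 59.3 FPKM in proximal fibroblasts in stage order (E13.5, E15.5, E17.5). Both genes stood lower at each later stage in both regions. The log2 fold change of E17.5 over E13.5, from the stage term of the fit with region, was −1.42 ± 0.17 (SE, limma adjusted p = 0.00764) for Meis2 and −0.96 ± 0.21 (SE, adjusted p = 0.0257) for Meis1. Meis3 was at 13.1, 12.7 and 7.35 FPKM in distal and 9.11, 11.3 and 7.20 FPKM in proximal fibroblasts (−0.53, adjusted p = 0.0683). Pbx3 was at 28.1, 36.2 and 28.4 FPKM in distal and 30.0, 33.0 and 25.2 FPKM in proximal fibroblasts (−0.11, adjusted p = 0.518), highest at E15.5 in both regions.

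These were 2 of 4 genes tested, both lower, where 37.1% of all tested genes were called (9.96% higher and 27.1% lower). The median of all tested genes was itself −0.31 and moved to 0.00 after rescaling to a common sum, where Meis2 was at −1.06 (adjusted p = 0.0162) and Meis1 at −0.60 (adjusted p = 0.106). After rescaling, 56.7% of all calls were higher, against 26.9% as deposited. Leaving out 1 library of E13.5 or E17.5 gave Meis2 adjusted p-values of 0.0505 to 0.0842 and log2 fold changes of −1.55 to −1.28, so that its call was lost in each of the 4 cases. The Meis1 call was kept only without the proximal E17.5 library (adjusted p = 0.0435), and without either E13.5 library 0 genes of all tested passed. Fibroblast markers summed to 4846, 11201 and 23840 FPKM in distal and 5771, 16223 and 32277 FPKM in proximal fibroblasts in stage order (E13.5, E15.5, E17.5). Endothelial markers summed to 1.43, 2.26 and 13.04 FPKM in distal and 1.36, 1.27 and 7.46 FPKM in proximal fibroblasts over the same stages. At E17.5 most of that sum was Tek, at 12.8 FPKM in distal and 6.94 FPKM in proximal fibroblasts. Pecam1, Cdh5 and Kdr stayed at or under 0.56 FPKM in every fibroblast library. Smooth muscle markers summed to 677, 366 and 550 FPKM in distal and 918, 689 and 1004 FPKM in proximal fibroblasts in the same stage order. The part of these lists in the fall of Meis1 and Meis2 was not tested.

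**Figure D3:**
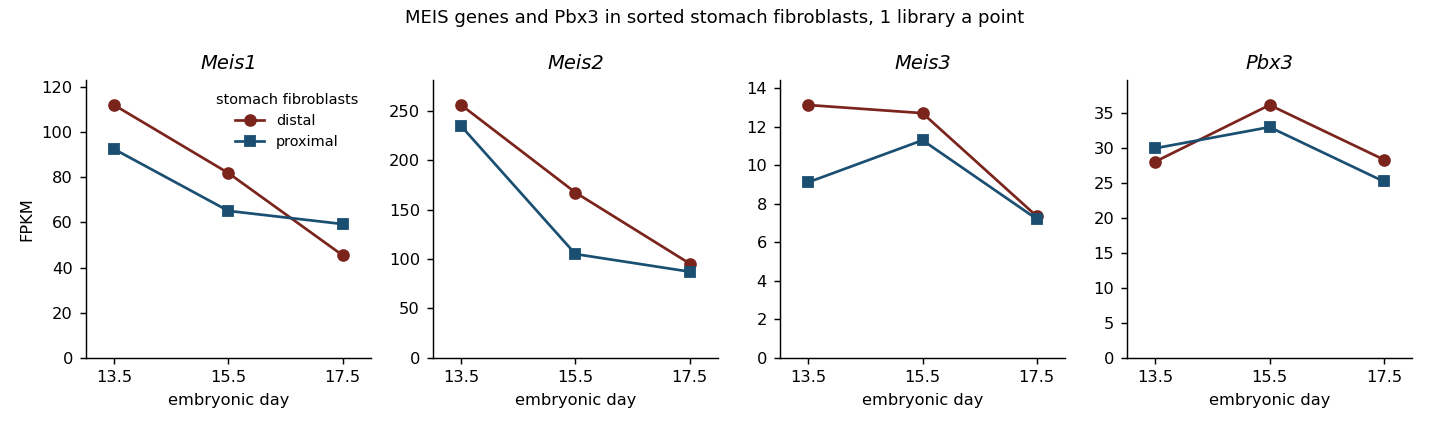
FPKM (vertical axes, each from 0) of Meis1, Meis2, Meis3 and Pbx3 against embryonic day in distal (circles) and proximal (squares) stomach fibroblasts, 1 library a point. Meis1 and Meis2 are lower at each later stage in both regions, and Pbx3 peaks at E15.5 at 36.2 FPKM in distal and 33.0 FPKM in proximal fibroblasts.

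Ordered by group mean, Irx2, Irx3 and Irx5 ran from Sox2hi at E11.5 over Sox2hi and Sox2midGata4mid at E13.5 to Gata4hi at E13.5, Gata4hi at E11.5 and the fibroblasts. The Sox2hi E11.5 value lay inside the Sox2hi E13.5 range for Irx2 and just above it for Irx3 and Irx5, and the Sox2midGata4mid and Sox2hi ranges overlapped for Irx2 and Irx5. Meis2 ran from E13.5 fibroblasts (256 and 235 FPKM) over distal fibroblasts of E15.5 (167 FPKM) to Gata4hi at E13.5 (118 ± 21.2 FPKM, SD, n = 3). Gata4hi at E11.5 and the remaining fibroblast libraries, from 87.2 to 105 FPKM, fell at or near the lower part of the Gata4hi range of 94.3 to 135.2 FPKM. Sox2hi and Sox2midGata4mid libraries made up the low end at 21.2 to 34.1 FPKM. Meis1, Meis3 and Pbx3 had their highest group means in fibroblasts.

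Likeness was described by Pearson's r of log2(FPKM + 1) over the 16 libraries among 13686 genes whose mean reached 1 FPKM. Libraries share cell type, so the values mostly follow the split between epithelium and fibroblasts. The closest genes were Irx5 (0.997), Dock8 (0.992) and Crnde (0.986) for Irx3, and Irx3 (0.997), Dock8 (0.991) and Crnde (0.986) for Irx5. For Irx2 they were Pld6 (0.980), Celsr1 (0.980) and Wipf3 (0.976), and for Irx1 Vamp1 (0.930), Hk2 (0.921) and Irx2 (0.916). Each Irx gene of the IrxB cluster was thus the closest gene to the other. For Meis2 they were Smim3 (0.964), Thap11 (0.933) and Sertad3 (0.927), for Meis1 Clec2l (0.957), Atg4a (0.952) and Acd (0.951), for Meis3 Zfp189 (0.954), Ankrd46 (0.935) and Acd (0.932), and for Pbx3 Nfia (0.970), Hcfc2 (0.968) and Cdh11 (0.968). Among the members, r was −0.90 between Irx3 and Meis2 and 0.91 between Meis1 and Meis3.

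The genes around Irx3 and Irx5 were read in the same comparison, since the cluster spans regulatory elements of both. Of 9 listed neighbours, 3 passed limma's test for Gata4hi over Sox2hi cells, all lower, where 21.6% of all tested genes did (6.7% lower), and their list median was −0.40 against 0.08 over all tested genes. Crnde, a noncoding transcript that begins 1.504 kb from Irx5 on the opposite strand, was at 1.76, 2.08 and 2.57 FPKM in Gata4hi, 9.94 and 15.49 FPKM in Sox2midGata4mid, and 20.1, 14.7 and 13.6 FPKM in Sox2hi libraries. It followed Irx5 in being low in Gata4hi libraries alone, at −2.44 ± 0.20 (SE, adjusted p = 1.51e-04). Irx3os, which overlaps Irx3, was at 0.173 to 0.541 FPKM in Gata4hi, 1.76 and 1.96 FPKM in Sox2midGata4mid, and 1.94 to 2.67 FPKM in Sox2hi libraries (−1.28 ± 0.20, adjusted p = 0.00353). Exons of Irx3os and Irx3 share 124 bases and the strand setting is not given, so Irx3os cannot be counted as separate from Irx3 with certainty. Rpgrip1l, a gene of the ciliary transition zone, differed by −1.01 ± 0.22 (adjusted p = 0.0140). Fto, which lies between Rpgrip1l and Irx3 and whose introns hold long-range elements of Irx3, was at −0.24 ± 0.08 and did not pass (adjusted p = 0.0631). Around Irx1 and Irx2, 6 of 8 listed neighbours could be tested and 1 passed, Slc12a7, which was higher at 0.86 ± 0.13 (adjusted p = 0.00315), where 14.9% of all tested genes were called higher.

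**Figure D4:**
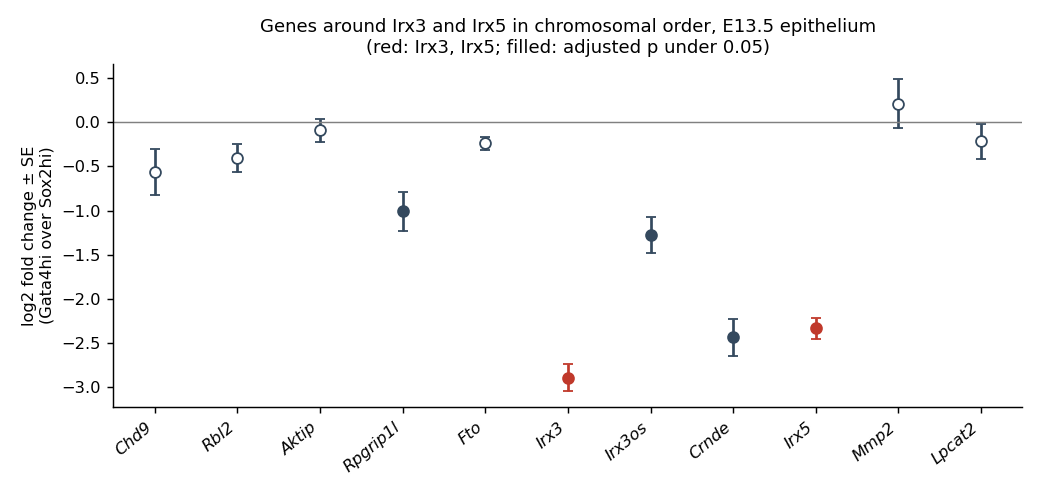
Log2 fold change ± SE of Gata4hi over Sox2hi cells at E13.5 (vertical axis) for tested genes of the IrxB region in chromosomal order (horizontal axis), with Irx3 and Irx5 in red and filled points where the limma adjusted p was under 0.05. Irx3, Irx3os, Crnde, Irx5 and the more distant Rpgrip1l lie below 0, and Fto at −0.24 is open.

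The rest of the TALE family gives the setting for these levels. Of 10 further TALE genes, 7 could be tested in E13.5 epithelium. For Gata4hi over Sox2hi cells 1 was higher, Pbx2 (56.4 FPKM in Gata4hi against 43.5 FPKM in Sox2hi, log2 fold change 0.37, adjusted p = 0.00805), and 2 were lower, Pknox2 (0.397 FPKM in Gata4hi against 2.11 FPKM in Sox2hi, −1.08, adjusted p = 0.0458) and Tgif2 (26.8 FPKM in Gata4hi against 33.7 FPKM in Sox2hi, −0.33, adjusted p = 0.0459), with levels as group means and tests from limma. Pknox2 was at 0.303 to 0.489 FPKM in Gata4hi libraries and at 2.89, 2.61 and 0.828 FPKM in Sox2hi libraries. The Pknox2 and Tgif2 calls were narrow, and how they hold under other settings was not examined. Over all tested genes 14.9% were called higher and 6.7% lower. Irx4 and Irx6 were at or under 0.255 FPKM in every group mean. None of the 7 passed in either comparison with Sox2midGata4mid cells.

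In fibroblasts, 7 of these 10 genes were tested between E17.5 and E13.5. Pbx2 (log2 fold change −1.40), Tgif1 (−0.71), Tgif2 (−1.52) and Mkx (−1.71), a regulator of tendon development, fell with limma adjusted p-values of 0.00547, 0.0390, 0.0152 and 0.0107. Pknox2 rose (0.64, adjusted p = 0.0257). Over all tested genes 27.1% were called lower and 9.96% higher, with a median of −0.31. As given above, that median moved to 0.00 after rescaling to a common sum. How the calls of these further TALE genes hold after rescaling or without single libraries was not examined.

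**Figure D5:**
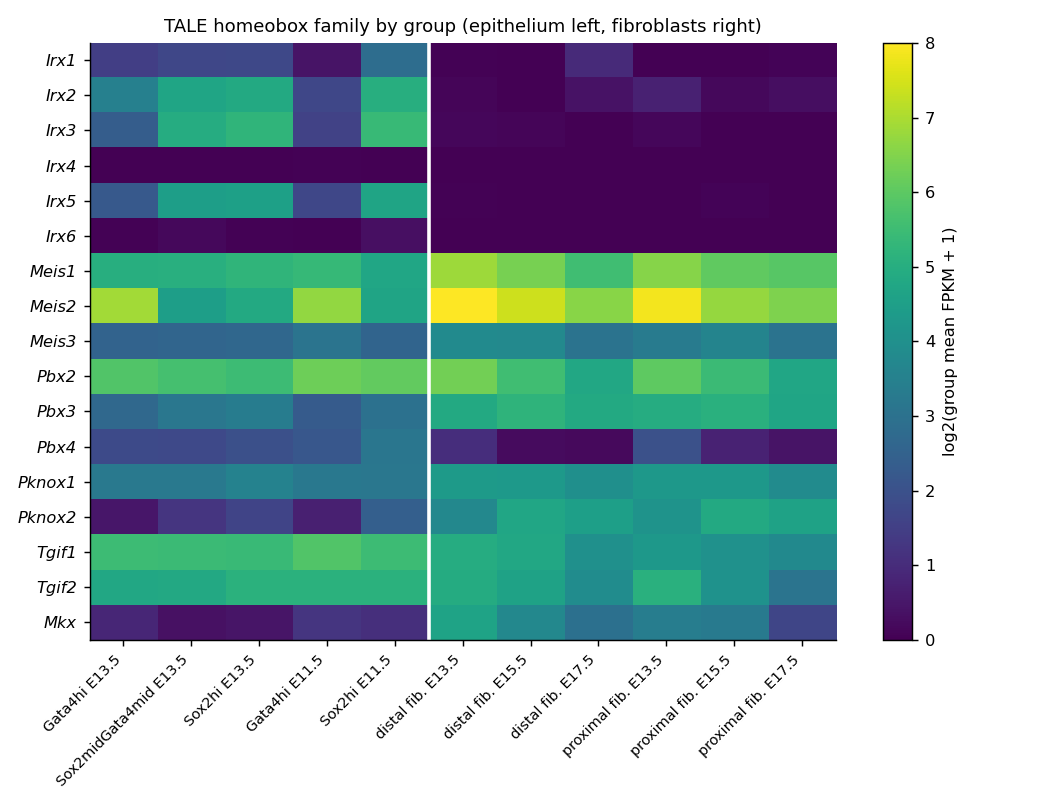
Heat map of log2(group mean FPKM + 1) for TALE genes (rows) in 5 epithelial groups (left) and 6 fibroblast groups (right). Irx2, Irx3 and Irx5 are brighter in every epithelial group than in any fibroblast group, Irx4 and Irx6 are dark throughout, and Meis2 is bright in fibroblasts and in Gata4hi cells.

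HOX proteins are the classic partners of MEIS and PBX, and 11 of 30 listed Hox genes reached the filter in E13.5 epithelium. For Gata4hi over Sox2hi cells 3 were lower and 0 higher, where 21.6% of all tested genes were called (6.7% lower), and the list median was −0.29 against 0.08. Hoxc5 was at 1.91, 1.02 and 3.67 FPKM in Gata4hi, 13.99 and 15.9 FPKM in Sox2midGata4mid, and 35.1, 28.1 and 40.4 FPKM in Sox2hi libraries (log2 fold change −3.54, limma adjusted p = 1.28e-04). Hoxc6 was at 0 to 0.0955 FPKM in Gata4hi, 0.2003 and 0.472 FPKM in Sox2midGata4mid, and 7.60 to 10.05 FPKM in Sox2hi libraries (−3.28, adjusted p = 2.55e-05), and Hoxc4 differed by −1.62 (adjusted p = 2.78e-04). Unlike the Irx genes, Hoxc6 also differed between Sox2midGata4mid and Sox2hi cells (−2.91, adjusted p = 6.49e-04).

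Retinoic acid, which induces Meis genes in limb and other tissues, was read through 18 genes of its synthesis, breakdown, transport and reception. Of the 12 that could be tested, 6 were lower and 0 higher in Gata4hi over Sox2hi cells, where 21.6% of all tested genes were called (6.7% lower), and the list median was −0.68 against 0.08. Aldh1a2, a retinoic acid-producing enzyme, differed by −2.71 (limma adjusted p = 5.32e-05), Aldh1a1, of the same enzyme family, by −1.83 (adjusted p = 1.04e-04), and Crabp2, an intracellular retinoic acid-binding protein, by −1.18 (adjusted p = 1.78e-04). The same 6 genes were also lower in Gata4hi over Sox2midGata4mid cells, where 13.6% of all tested genes were called (2.59% lower), and the comparisons share the Gata4hi libraries. As group means at E13.5, Aldh1a2 was at 0.399 FPKM in Gata4hi and 8.13 FPKM in Sox2hi cells, against 31.0 to 174 FPKM in fibroblasts of all stages. The breakdown genes Cyp26a1, Cyp26b1 and Cyp26c1 did not reach the filter in E13.5 epithelium and were not tested there. Retinoic acid itself was not measured.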

How the data were processed

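RNA of the 16 libraries was sequenced by the authors as stranded polyA libraries. Levels were deposited as FPKM, for which the authors trimmed with cutadapt 1.16, aligned to mm10 with HISAT2 2.1.0, then ran Cufflinks 2.2.1. Its strand setting, the normalization mode and any filter are not given in the sources used here. Of 53773 entries, 1 was empty and is not analysed here, 61 repeated an identifier and were left out, and 53711 genes were kept. The file holds no counts, so no interval or detection limit for a single value could be had.

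E13.5 epithelium (8 libraries, 3 groups) and fibroblasts (6 libraries, region plus stage) were each fitted as log2(FPKM + 1) in limma 3.58.1 under R 4.3.3. Genes had a mean of at least 1 FPKM, variances followed a trend, and p-values were adjusted by Benjamini-Hochberg over all 13127 or 12900 genes, with a threshold of 0.05. Groups of 1 library were compared by 2-fold differences on the same scale, with no overlap where a group had more libraries. The scripts were tested on simulated data, and tables were handled with pandas 2.3.3 and numpy 2.4.6.

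Replicate numbers are shared between groups. Deviations from the group means of same-numbered Gata4hi and Sox2hi libraries correlated at 0.113, 0.119 and 0.163. Those of differently numbered ones correlated at −0.0993 to −0.0156. These values are small and do not settle whether the numbers pair these libraries. No label states such a pairing, and the main fits did not use one. Sox2midGata4mid cells have 2 libraries only.

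The members, gene lists, markers and motifs were chosen with earlier results of these data known. All members are named. Other TALE genes, cluster neighbours and overlapping genes are named as listed, HOX and retinoic acid genes by their largest changes, and the 3 genes most correlated with each member over the 16 libraries, leaving out predicted genes. Alternatives were the pseudocount (0.1), the filter (none, or 5 FPKM), rescaling, quantile normalization, the groups fitted, the variance trend, the replicate block, replicates 1 and 2 only, a 4-fold threshold and leaving out libraries. Some listed genes are not reported here by name, and counts and sums over their lists include them.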

Additional observations from a re-analysis of the deposited data

Results flagged for a closer look

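In 4 of the 8 genes, all 3 E13.5 libraries lay on opposite sides of the E11.5 library in Gata4hi and in Sox2hi cells, as they did in 11.54% of the 13114 genes that averaged 1 FPKM or more in these libraries. The log2 difference of E13.5 over E11.5 for Irx1 was 1.09 in Gata4hi and −1.15 in Sox2hi cells. For Irx3 it was 0.74 in Gata4hi and −0.15 in Sox2hi cells, and for Irx5 0.50 in Gata4hi and −0.12 in Sox2hi cells. Meis1 ran the other way, with −0.36 in Gata4hi and 0.50 in Sox2hi cells. After rescaling to a common sum the Sox2hi values were 0.0048 for Irx3 and 0.041 for Irx5, and the opposite pattern held for Irx1, Meis1 and Meis3, 3 of the 8 genes, and for 11.83% of all genes. These differences between the fractions rest on 1 E11.5 library each and were not tested.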

How the results depend on the processing

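Of 705 recomputed values of the 8 genes, 647 kept their direction and side of the threshold or moved by less than the spread. Signs turned in 18, of which 15 were of tested values, none past the threshold. The other 3 were small untested differences between E13.5 and E11.5 in Sox2hi cells, at 0.0048 for Irx3 and 0.041 for Irx5 after rescaling and 0.019 for Irx2 without Sox2hi replicate 3. After rescaling to a common sum, Sox2midGata4mid over Sox2hi cells gave 0.095 for Irx1, 0.067 for Irx5 and 0.049 for Meis3, and E17.5 over E13.5 gave 0.24 for Pbx3, which quantile normalization put at 0.12. With replicates 1 and 2 only, Meis1 was at 0.0082 in Gata4hi over Sox2midGata4mid cells. Leaving out 1 library gave ranges of −0.088 to 0.10 for Irx1 and −0.23 to 0.10 for Meis3 in Sox2midGata4mid over Sox2hi cells, −0.087 to 0.0082 for Meis1 and −0.24 to 0.093 for Meis3 in Gata4hi over Sox2midGata4mid cells, −0.051 to 0.30 for Meis1 in distal over proximal fibroblasts, and −0.23 to 0.0055 for Pbx3 between E17.5 and E13.5. The cause was not tested.

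The replicate block, which takes the replicate number as a term, gave 1 of 8 genes called in Sox2midGata4mid over Sox2hi cells, Meis2 (−0.55, limma adjusted p = 0.0377), against 0 without it. It changed no other call of the 8 genes. For those 2 groups the same-numbered libraries correlated at 0.0971 and 0.0854, and the 2 pairs share only a number. The count of members between E17.5 and E13.5 fibroblasts was 1 with no filter, after rescaling and after quantile normalization, and 0 to 1 without 1 library, against 2. At 4-fold, the counts were 0 in Sox2hi and 0 in Gata4hi cells between stages and 4 between epithelium and fibroblasts, against 1, 2 and 7.

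Counts over all genes moved by more than 1.5 times as follows. Sox2midGata4mid over Sox2hi cells had 728 calls, 374 with the 2 groups alone, 339 with replicates 1 and 2 only and 240 to 624 without 1 library. Gata4hi over Sox2midGata4mid cells had 1784 calls, 1006 after quantile normalization, 1155 with the 2 groups alone and 532 to 1804 without 1 library. Fibroblasts between E17.5 and E13.5 had 4780 calls, 2973 with no filter and 0 to 2233 without 1 library. At 4-fold the counts of genes apart were 339 against 1129 at E11.5, 256 against 1051 in Sox2hi and 176 against 694 in Gata4hi cells between stages, and 1234 against 2897 between epithelium and fibroblasts. Rescaling gave 1612 for Sox2hi cells between stages, and a pseudocount of 0.1 gave 1101 for Gata4hi cells. Depth limits the levels near 0, and with 1 library a group at E11.5 and in each fibroblast group no spread within a group was measured.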
